A study of Mus musculus with 22 samples.

Results

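Id1, Id2 and Id3 encode inhibitors of DNA binding, and their transcripts were followed through 4 maturation stages of mouse bone marrow eosinophils, with and without an antibody that neutralises the cytokine IL-5. The members were chosen by gene symbol, which gave 3 genes of the 24982 listed in each library's count table. All mice were C57BL6 wild-type animals that had received 400 ng of the alarmin IL-33 by intraperitoneal injection on each of 7 days, so no group is free of IL-33. From the last of those days they also received 3 daily injections of 400 µg of either anti-IL5 or a control isotype antibody. Neither their age nor their sex is stated in the labels. Marrow was depleted of cells bearing Ly6G, CD90.2, NK1.1 or CD45R, and eosinophils were sorted into stage I (the earliest), II, III and IV by their surface CD117, CD200R3, PIR-A/B, CD55, F4/80, CD29 and Siglec-F, at a stated purity of at least 95%. This gave 22 libraries, 11 per antibody, with 3 in each group and 2 in each group at stage II.

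Id proteins carry a helix-loop-helix domain but lack the basic stretch that contacts DNA. They pair with E proteins (the products of Tcf3, Tcf4 and Tcf12) and keep them from binding the E-box, the DNA element of basic helix-loop-helix (bHLH) factors. Id genes are classic targets of BMP signalling through SMAD proteins, and Id2 is known for its role in innate lymphoid cells, natural killer cells and some dendritic cells. Id4, the remaining family member, is named here for completeness of the family.

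In the GENCODE annotation of build GRCm38, Id1 lies at chr2:152736251-152737410 on the plus strand, Id2 at chr12:25093799-25097140 on the minus strand and Id3 at chr4:136143497-136145755 on the plus strand. All are protein-coding, and no other gene of that annotation overlaps any of them. The gene models behind the deposited counts are not given, so whether reads of a neighbour or an antisense partner entered those counts could not be checked. The upstream sequences of Id2, the member with the highest counts, and Id3, the member with almost none, are shown for comparison (RefSeq, GRCm38.p6). Each is the stretch of 250 bases before the RefSeq start, read 5′ to 3′ along the gene, at chr12:25096093-25096342 on the minus strand for Id2 and chr4:136143572-136143821 on the plus strand for Id3. Both stretches lie inside the wider GENCODE gene spans. Capitals mark matches to CCAAT or CANNTG (the E-box) on either strand.
Id2: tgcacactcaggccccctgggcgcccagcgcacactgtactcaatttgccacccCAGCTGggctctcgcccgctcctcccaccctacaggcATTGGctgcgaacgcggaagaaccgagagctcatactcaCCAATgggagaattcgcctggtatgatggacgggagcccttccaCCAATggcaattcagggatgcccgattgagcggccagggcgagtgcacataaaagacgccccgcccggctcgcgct
Id3: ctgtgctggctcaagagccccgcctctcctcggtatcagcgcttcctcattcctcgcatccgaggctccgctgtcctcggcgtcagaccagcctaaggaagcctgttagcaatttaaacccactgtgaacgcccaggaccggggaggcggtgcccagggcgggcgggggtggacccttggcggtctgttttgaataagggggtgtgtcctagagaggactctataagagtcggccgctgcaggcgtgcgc

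The Id2 stretch holds 3 CCAAT matches, whose 5′-most bases lie at -159 (on the opposite strand), -120 and -76 from the start. Of 32851 mouse promoters searched over the same length, 33.8% hold at least 1 CCAAT and 2.79% hold 3 or more. The Id2 stretch also holds 1 E-box at -196, which 66.2% of promoters have, and 1 GGCGCC, a letter run of BMP-responsive elements, at -231, which 9.59% have. It holds no TTCNNNGAA (the STAT5 core, in 7.02% of promoters), no TGACGTCA (in 1.55%) and no TATAAA (in 12.4%). The Id3 stretch holds none of these 6 letter runs on either strand. These matches describe letters and name no bound factor.

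Id1 and Id2 were read in all 22 libraries, with 35262 and 138040 counts among 225505912 gene counts. Id3 had 16 counts in all, found in 4 libraries: 3 in stage I isotype replicate 1, 9 in stage II isotype replicate 2, 3 in stage III isotype replicate 2 and 1 in stage I anti-IL5 replicate 2. The other 18 libraries had no Id3 count, where a library's own limit for a count of 0 lies between 0.227 and 0.411 CPM (the count per 1000000 gene counts). Id4 had no count in any library, which allows at most 0.0134 CPM over all 22. Of the 3 members, 2 passed the filter on low counts, and Id3 was not tested. Levels below are CPM scaled by TMM, which sets library sizes by the bulk of genes, and p-values are from edgeR's quasi-likelihood test, adjusted over the 12387 genes tested.

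Libraries held 7161264 to 14781250 gene counts and 12359 to 13829 genes with a count. Eosinophil markers were read in every group, at a summed 10100 to 69100 CPM over 13 genes such as Epx and Prg2. Among 13 markers of innate lymphoid, natural killer and T cells, other cells known for Id2, Thy1, Cd8a and Ncr1 had no count in any library, and Gata3, Cd3e and Klrb1c were at 0 in at least 6 of the 8 groups. Cd3d and Tcf7 had counts in every group, and Cd3d, Tcf7, Cd4 and Nkg7 passed the filter on low counts. In isotype mice that list summed to a mean of 1090 CPM at stage I, of which 1078 CPM came from Nkg7. At stage IV the mean sum was 6.75 CPM. Nkg7 was also the 1 of 4 tested genes of the list called between antibodies, lower under anti-IL5 at stage III (edgeR adjusted p = 0.000185). The part of such cells in the Id2 levels was not tested. The 9 dendritic cell markers summed to 2.71 to 17.6 CPM per library, and 0 of the 6 tested were called by edgeR at any stage (1 had an unadjusted p under 0.05, at stage III, and DESeq2 called 0). Of the eosinophil markers, under anti-IL5 2 were higher at stage I, 2 lower at stage III and 3 lower at stage IV. Among all genes tested, 2.6% were higher at stage I, 5.05% lower at stage III and 0.864% lower at stage IV. In bulk samples, fewer cells of a type and less RNA per cell cannot be told apart. Whether libraries with equal replicate numbers came from the same animal is not given, so p-values measure the spread between these samples, which may be technical.

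In isotype mice Id2 was lowest in the earliest eosinophils and stepped up at every later stage. At stage I its level was 38.7, 25.6 and 38.2 CPM in the 3 libraries. At stage II it was 314.8 and 245 CPM. At stage III the 3 libraries read 533, 538 and 553 CPM, with an SD of 10.1 CPM. At stage IV they read 765, 828 and 785 CPM. No library of any stage reached into the range of the next stage, as was so for 39.1%, 52.5% and 46.8% of genes in the steps to stages II, III and IV, and for 73.8% between stages I and IV. The rise from stage I to stage II was 8.18-fold (log2 3.03 ± 0.19 SE, edgeR adjusted p = 2.9e-09), and it had the smallest p of all genes in a step in which 10.6% of genes changed. Stage III exceeded stage II by log2 0.95 ± 0.19 (edgeR adjusted p = 5e-04, 37.1% of genes called), and stage IV exceeded stage III by log2 0.55 ± 0.17 (edgeR adjusted p = 0.013, 33.6% called). Over the whole course Id2 rose 23.1-fold (log2 4.53 ± 0.19, edgeR adjusted p = 1.32e-13, 66.2% called).

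Id1 took another course in the same isotype libraries, with its peak at stage II. Its level was 64.2, 69.5 and 69.3 CPM at stage I. At stage II it was 202 and 195 CPM. It then lay at 117, 133 and 112 CPM at stage III and at 112, 163 and 107 CPM at stage IV. The stage II libraries stood above all others of this antibody, and stages III and IV overlapped. The rise from stage I to II was log2 1.55 ± 0.29 (2.94-fold, edgeR adjusted p = 0.00146), and stage IV remained above stage I by log2 0.91 ± 0.27 (edgeR adjusted p = 0.00464). The lower level at stage III than at II, log2 -0.72 ± 0.29, did not pass the threshold (edgeR adjusted p = 0.056) although the libraries did not overlap. Between stages III and IV the difference was log2 0.08 ± 0.26 (95% interval -0.47 to 0.62). With library totals in place of TMM, which moves the median of all genes by -0.42 on the log2 scale between stages I and IV, the rise of Id1 from stage I to IV was log2 0.50 and did not pass (edgeR adjusted p = 0.0985).

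**Figure D1:**
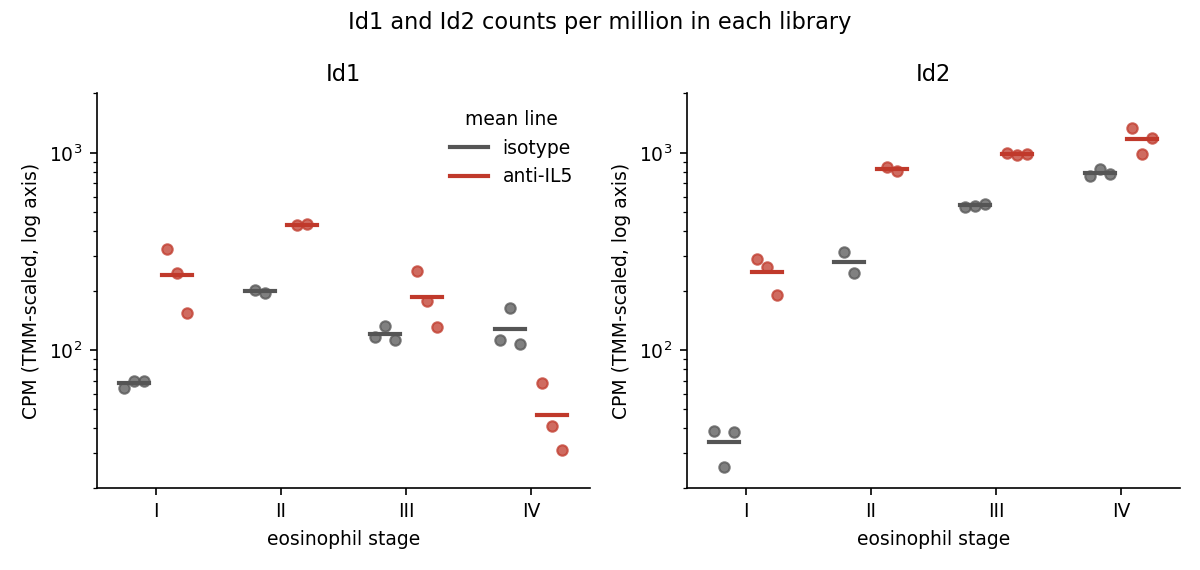
CPM of Id1 (left) and Id2 (right) in each library, on a log axis, by stage and antibody; points are libraries and horizontal lines are group means (n = 3 per group, n = 2 at stage II). Id2 under anti-IL5 lies above isotype at each stage, whereas Id1 under anti-IL5 lies above isotype at stages I and II and below it at stage IV.

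With IL-5 neutralised, Id2 was already at 289, 264 and 190 CPM at stage I. All 3 libraries were far above the isotype range of 25.6 to 38.7 CPM. At stage II it read 846 and 810 CPM, at stage III 994, 974 and 992 CPM, and at stage IV 1337, 992 and 1195 CPM. At each stage the lowest anti-IL5 library was above the highest isotype library. The share of genes whose libraries separated in this way, in either direction, was 28.4% at stage I, 33.8% at stage II, 26% at stage III and 15.8% at stage IV.

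Id2 was the gene of smallest p in the stage I comparison, where it was 7.23-fold higher under anti-IL5 (log2 2.85 ± 0.18, edgeR adjusted p = 3e-09). In that comparison 4.42% of genes were called, 2.6% of them higher and 1.82% lower, as shares of all genes tested. The difference was 2.96-fold at stage II (log2 1.56 ± 0.21, edgeR adjusted p = 0.000362, 1.75% of genes called, 0.565% higher and 1.19% lower). In a fit of the 4 stage II libraries alone, in which 1 gene was called in all, the stage II call for Id2 was lost (log2 1.56, edgeR adjusted p = 0.356). The difference was 1.82-fold at stage III (log2 0.87 ± 0.17, edgeR adjusted p = 0.00312, 6.37% called, 1.32% higher and 5.05% lower). At stage IV it was 1.48-fold (log2 0.57 ± 0.17, 95% interval 0.23 to 0.91), which did not pass the threshold (edgeR adjusted p = 0.128, 1.05% called, 0.186% higher and 0.864% lower). Id2 was 1 of 25 genes (0.202%) called higher at stages I, II and III alike, a place that follows from its calls above and is no separate support. Averaged over the 4 stages, Id2 was higher by log2 1.46 ± 0.09 (edgeR adjusted p = 8.45e-10), in a comparison in which 18.9% of genes were called, 8.59% higher and 10.3% lower. Such averages treat libraries of different stages as independent, although whether they came from the same mice is not given.

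The size of the Id2 difference itself changed with stage. The difference at stage III minus that at stage I was log2 -1.99 ± 0.24 (edgeR adjusted p = 0.000421, 0.396% of genes called), and at stage IV minus stage I it was log2 -2.29 ± 0.24 (edgeR adjusted p = 4.04e-05, 0.928% called). Id2 had the smallest p of all genes in each of these tests. At stage II minus stage I it was log2 -1.29 ± 0.26 (edgeR adjusted p = 0.455), a test in which 0 of 12387 genes passed while 2.53% had an unadjusted p under 0.05. DESeq2 called 3 genes there, Id2 among them (adjusted p = 0.0179), and limma-voom called 0.

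Id1 under anti-IL5 was high early and low late. At stage I it read 324, 245 and 155 CPM, above the isotype range of 64.2 to 69.5 CPM. At stage II it read 429.5 and 435 CPM, the highest Id1 levels of the series. At stage III it read 252, 176 and 131 CPM. The lowest of these lay within the isotype range of 112 to 133 CPM. At stage IV it read 68.0, 41.4 and 31.3 CPM, and here all 3 libraries were below the lowest isotype library at 107 CPM.

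The difference in Id1 was 3.56-fold at stage I (log2 1.83 ± 0.27, edgeR adjusted p = 0.000366). At stage II it was log2 1.12 ± 0.32 and did not pass (edgeR adjusted p = 0.088), though it did with DESeq2 (adjusted p = 0.0202), and at stage III it was log2 0.63 ± 0.26 (edgeR adjusted p = 0.163). At stage IV Id1 was 2.73-fold lower under anti-IL5 (log2 -1.45 ± 0.27, edgeR adjusted p = 0.00542). That call was lost without isotype replicate 2 (log2 -1.23, edgeR adjusted p = 0.0544) or without anti-IL5 replicate 3 (log2 -1.22, edgeR adjusted p = 0.054). The mean over the stages, log2 0.53 ± 0.14 (edgeR adjusted p = 0.00985), joins differences of opposite sign. It too treats libraries of different stages as independent.

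Whether the Id1 difference changed between stages was itself tested, which is not a test of its sign. The Id1 difference at stage IV minus that at stage I was log2 -3.28 ± 0.38 (edgeR adjusted p = 9.4e-05), and minus that at stage III it was log2 -2.08 ± 0.38 (edgeR adjusted p = 0.0142, 0.638% of genes called). The latter call was lost in a fit of only the groups compared (edgeR adjusted p = 0.0514). In the F test of any change of the difference over the 4 stages, with 3 degrees of freedom, 1.07% of genes passed. Id2 ranked 1 by p (edgeR adjusted p = 0.000183) and Id1 ranked 3 (edgeR adjusted p = 0.000891). Among 12387 genes, 2 (0.0161%) were called higher at stage I and lower at stage IV, Id1 and Klrb1f. The place of Id1 follows from its own calls above, so this count is no separate support. Its call at stage IV was lost in 2 of 6 fits without 1 library. Klrb1f, a member of the killer-cell lectin-like receptor family, was named after its values were seen, and reads shared with close relatives of it could be split in counting. Its differences were log2 0.97 ± 0.19 at stage I (edgeR adjusted p = 0.00424) and log2 -1.15 ± 0.19 at stage IV (edgeR adjusted p = 0.0024).

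**Figure D2:**
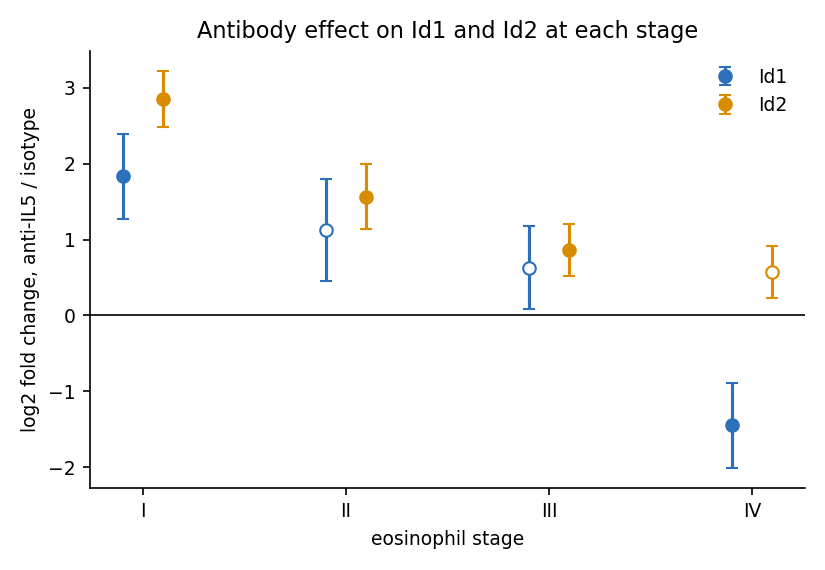
Log2 fold change of anti-IL5 over isotype for Id1 and Id2 at each stage, with 95% intervals from the edgeR fit; filled points passed an adjusted p of 0.05 and open points did not. The Id2 values fall from 2.85 at stage I to 0.57 at stage IV and stay above 0, and the Id1 values pass from 1.83 at stage I to -1.45 at stage IV.

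The courses from stage to stage differed accordingly. Under anti-IL5, Id2 rose 3.34-fold from stage I to II (log2 1.74 ± 0.18, edgeR adjusted p = 7.51e-06, 12.4% of genes called), with libraries apart as for 41.3% of genes. The later steps were log2 0.25 ± 0.19 from II to III (edgeR adjusted p = 0.294, 39.5% called) and log2 0.25 ± 0.16 from III to IV (edgeR adjusted p = 0.297, 23.8% called), with 95% intervals of -0.13 to 0.64 and -0.09 to 0.59. The libraries were apart in the step from II to III, as for 58.6% of genes, and overlapped from III to IV, where 41.8% of genes were apart. From stage I to IV it rose 4.74-fold (log2 2.25 ± 0.17, edgeR adjusted p = 3.3e-10, 63.5% called, 70.2% apart).

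Id1 under anti-IL5 fell after stage II. Its rise from I to II, log2 0.84 ± 0.29, did not pass (edgeR adjusted p = 0.0585), though without stage I anti-IL5 replicate 1 it did (log2 1.11, edgeR adjusted p = 0.0204). It fell 2.32-fold from stage II to III (log2 -1.21 ± 0.29, edgeR adjusted p = 0.00189) and 3.99-fold from III to IV (log2 -1.996 ± 0.27, edgeR adjusted p = 1.18e-05). At stage IV it was 5.16-fold below stage I (log2 -2.37 ± 0.28, edgeR adjusted p = 1.81e-07), whereas in isotype mice the end of the course lay above its start.

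Ordered by mean level over the 8 groups, Id2 ran from isotype stage I at 34.2 ± 7.43 CPM (SD, n = 3) through anti-IL5 stage I at 248 ± 51.8 and isotype stage II at 280.1 ± 49.0 (n = 2). It went on through isotype stage III at 541 ± 10.1, isotype stage IV at 793 ± 32.1, anti-IL5 stage II at 828 ± 25.5 (n = 2) and anti-IL5 stage III at 987 ± 11.4, up to anti-IL5 stage IV at 1175 ± 173. Neighbours whose libraries overlapped were anti-IL5 stage I with isotype stage II, isotype stage IV with anti-IL5 stage II, and anti-IL5 stages III and IV. Id1 ran from anti-IL5 stage IV at 46.9 ± 19.0 CPM and isotype stage I at 67.7 ± 2.99 through isotype stages III at 121 ± 11.0 and IV at 128 ± 30.9. Above them came anti-IL5 stage III at 186 ± 61.2, isotype stage II at 199 ± 4.76 (n = 2), anti-IL5 stage I at 241 ± 84.5 and anti-IL5 stage II at 432 ± 4.11 (n = 2). In this order only isotype stages I and III, and anti-IL5 stages I and II, were neighbours without overlap.

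Set beside the next stage of the control mice, Id2 of anti-IL5 stage I overlapped isotype stage II (log2 -0.18 ± 0.18, 95% interval -0.56 to 0.20, edgeR adjusted p = 0.712). In that comparison 2.33% of genes were called and 29.7% had libraries apart. Id1 also overlapped there (log2 0.28 ± 0.29, edgeR adjusted p = 0.72). Id2 of anti-IL5 stage II was above isotype stage III by log2 0.61 ± 0.18 (edgeR adjusted p = 0.0153, 26.9% called, 46.8% apart), a call that was lost without anti-IL5 replicate 1 (log2 0.58, edgeR adjusted p = 0.0892). Id1 was above it by log2 1.84 ± 0.29 (edgeR adjusted p = 9.32e-05). For anti-IL5 stage III against isotype stage IV, Id2 differed by log2 0.32 ± 0.16 (edgeR adjusted p = 0.173) and Id1 by log2 0.55 ± 0.26 (edgeR adjusted p = 0.137), with 25.3% of genes called and 43.6% apart. Id1 overlapped there and Id2 did not.

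The first principal component of log2 CPM over all tested genes held 62.3% of the variance and ordered the stages. Anti-IL5 libraries had higher scores at stage I (-99.5 ± 5.12 against -115 ± 5.68), stage II (-52.4 ± 5.10 against -78.5 ± 6.19, n = 2) and stage III (55.3 ± 10.9 against 16.9 ± 12.9). At stage IV the scores were 114 ± 2.14 and 115.0 ± 1.43. Id2 rose along this axis, and at stage IV the anti-IL5 libraries, at 992 to 1337 CPM, still stood above isotype libraries of like score, at 765 to 828 CPM. Id1 at the same stage IV scores was lower under anti-IL5. How far position on this axis accounts for either gene's difference was not tested.

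**Figure D3:**
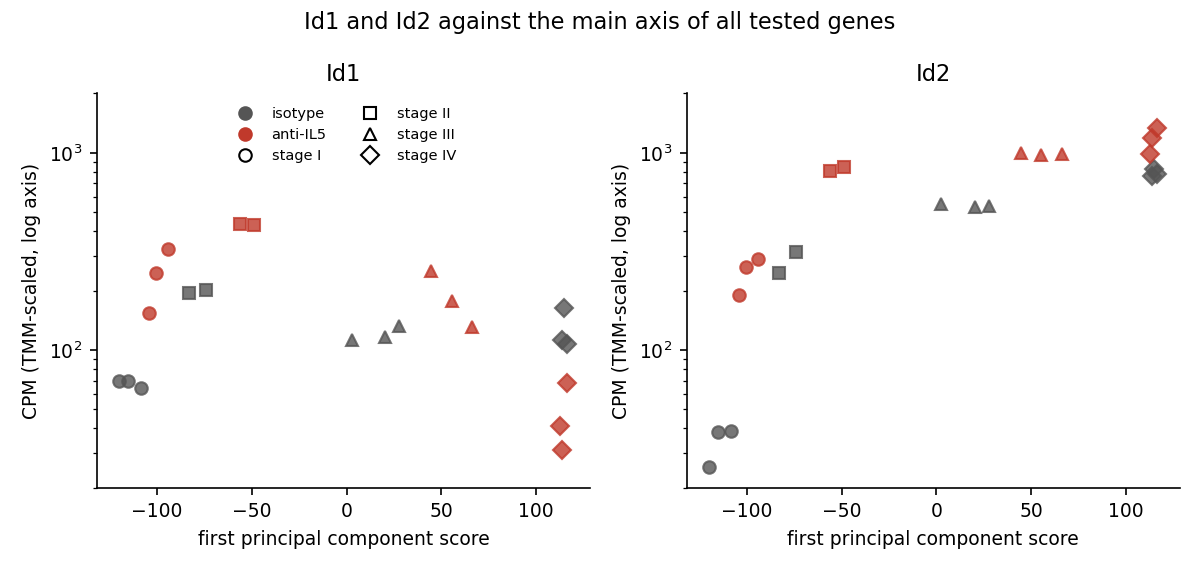
CPM of Id1 and Id2 (log axis) against the score on the first principal component of all tested genes, 1 point per library, coloured by antibody and shaped by stage. Id2 climbs with the score, steeply among libraries of stages I and II, and Id1 is highest in the anti-IL5 stage II libraries at scores of -56.0 and -48.8.

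Between the members, the mean antibody difference over stages was larger for Id2 than for Id1 by log2 0.97 (exact permutation of antibody labels within stages, two-sided, p = 0.000208, adjusted over 3 pairs 0.000312). That gap was log2 1.09 at stage I, 0.45 at stage II, 0.29 at stage III and 2.05 at stage IV. In the pairs with Id3, Id3 stood near its floor, so these pairs mix the change of the other member with the few counts of Id3. At stage II they gave log2 2.43 for Id1 and 2.89 for Id2, beside 1.12 and 1.56 for these members alone. There Id3 had 9 counts in isotype replicate 2 and 0 in the anti-IL5 libraries. The exact permutation adjusted p was 0.0725 with Id1 and 0.000125 with Id2. The latter came from the smallest p of 4.17e-05 that 48000 permutations allow. The test treats libraries of different stages as independent.

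To compare levels between the genes, CPM were divided by the length of the union of each gene's annotated exons (1160 bases over 2 transcripts for Id1, 2438 over 3 for Id2). Which transcripts were read is not known from gene counts, so the order of near-equal values, as under anti-IL5 at stage II, rests on these lengths. On this scale, Id1 exceeded Id2 at stages I and II and Id2 exceeded Id1 at stages III and IV, under either antibody. In isotype mice the log2 ratio of Id2 to Id1 was -2.08 ± 0.38 (SD, n = 3) at stage I, -0.59 ± 0.22 (n = 2) at stage II, 1.10 ± 0.15 at stage III and 1.59 ± 0.28 at stage IV. Under anti-IL5 it was -0.99 ± 0.23, -0.14 ± 0.06 (n = 2), 1.38 ± 0.47 and 3.64 ± 0.49. The ranges of the antibodies overlapped at stage III and were apart at the other stages. At stage IV, Id1 stood at 40.4 ± 16.4 CPM per kilobase under anti-IL5 beside 482 ± 71.1 for Id2.

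**Figure D4:**
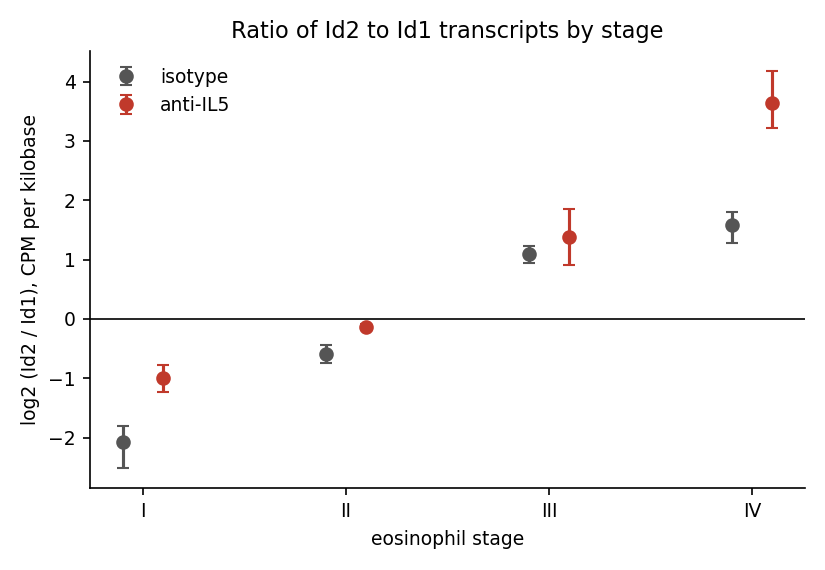
Log2 ratio of Id2 to Id1, both as CPM per kilobase of exon, by stage and antibody; points are group means and bars run from the lowest to the highest library. The ratio rises with stage under either antibody, from -2.08 to 1.59 in isotype mice and from -0.99 to 3.64 under anti-IL5.

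The targets of Id proteins, the E proteins, were measured in the same libraries. Tcf3, which encodes E12 and E47, lay between 70.1 and 132 CPM in all 22 libraries, and its groups overlapped between antibodies at every stage. Its differences ran from log2 -0.27 ± 0.16 at stage IV to 0.03 ± 0.19 at stage II. Tcf12, which encodes HEB, lay between 11.6 and 25.1 CPM and overlapped likewise, with differences of log2 -0.21 to 0.05. Tcf4, which encodes E2-2, fell in isotype mice, from 11.4 ± 1.13 CPM in the earliest to 1.01 ± 0.58 CPM in the latest stage (log2 -3.48 ± 0.70, edgeR adjusted p = 0.000164). Under anti-IL5 Tcf4 fell from 11.2 ± 6.60 to 2.04 ± 1.96 CPM (log2 -2.43 ± 0.66, edgeR adjusted p = 0.00298), with overlap between the end stages. Of these 3 genes, 0 were called between antibodies by edgeR, DESeq2 or limma-voom at any stage or in the mean over stages, and 0 had an unadjusted p under 0.05. Their median differences were log2 -0.10, -0.02, -0.23 and 0.05 at stages I to IV.

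**Figure D5:**
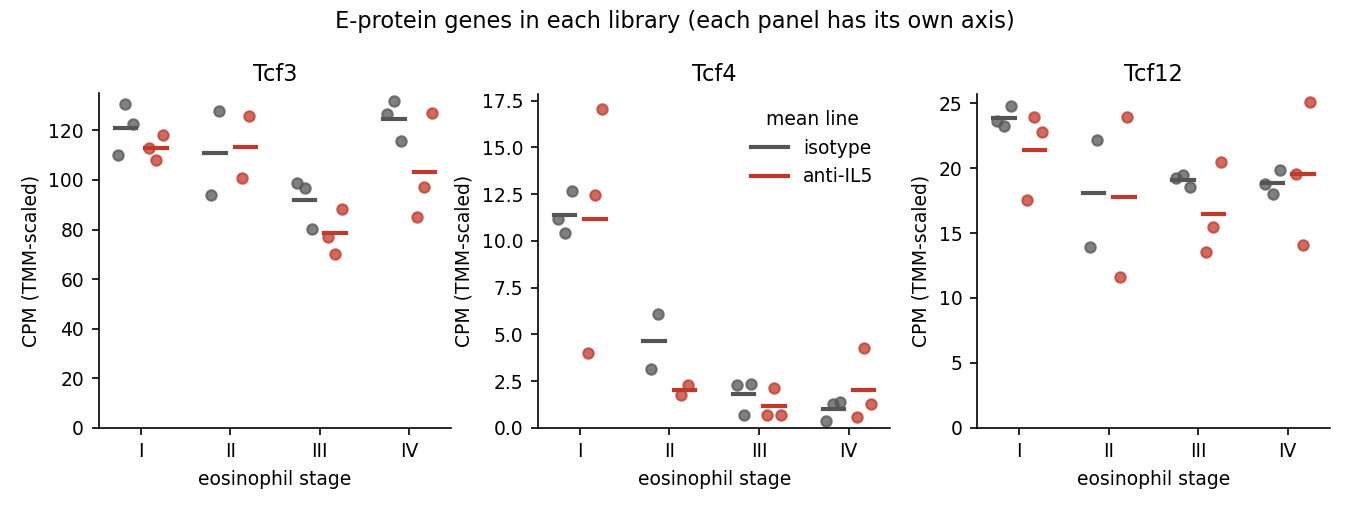
CPM of the E-protein genes Tcf3, Tcf4 and Tcf12 in each library, by stage and antibody, each panel with its own linear axis from 0; points are libraries and lines group means. Tcf3 and Tcf12 stay within 70.1 to 132 and 11.6 to 25.1 CPM, and Tcf4 is highest at stage I.

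Among 15 tissue-restricted bHLH partners of E proteins, 4 were tested and 9 had no count at all. Lyl1, a partner known from blood progenitors, lay at 19.7 to 30.6 CPM as group means, with no antibody call. Ascl2 was higher under anti-IL5 at stage III, at 6.61 ± 0.93 against 1.96 ± 0.75 CPM (edgeR adjusted p = 0.0104, but 0.07 without isotype replicate 3). Of 24 bHLH genes outside the E-protein class, 20 were tested, and 1 to 3 of them were called at each stage. Shares of all genes called were 4.42%, 1.75%, 6.37% and 1.05% at stages I to IV. Myc, the growth-promoting factor, was lower under anti-IL5 at stage III, at 3.23 ± 1.66 against 19.0 ± 4.70 CPM (log2 -2.56 ± 0.40, edgeR adjusted p = 0.000594). Mxd1, which competes with Myc for their shared partner Max, was higher at stage I, at 68.5 ± 11.3 against 35.9 ± 9.29 CPM (log2 0.93 ± 0.17, edgeR adjusted p = 0.00318).

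In the BMP and TGF-beta pathway upstream of Id genes, few ligand genes passed the filter on low counts. Of 12 ligand genes 3 were tested, of 13 receptor genes 10, and of 13 SMAD transducers and their brakes 12. Between antibodies, 1 ligand and 1 receptor were called, both at stage III, where 6.37% of all genes were called. By edgeR or DESeq2, 0 SMAD genes were called at any stage. Of the SMAD genes, 0, 1, 2 and 1 had an unadjusted p under 0.05 at stages I to IV. The receptor gene Acvr2b had no count in the 3 isotype libraries of stage III and 26 counts under anti-IL5 (edgeR adjusted p = 0.00635). The ligand gene Bmp7 had 44 counts in isotype libraries and 4 under anti-IL5 there, a call that 4 of the 6 fits without 1 library did not keep (edgeR adjusted p = 0.0379, and 0.177 without isotype replicate 3, 0.105, 0.0514 and 0.145 without anti-IL5 replicates 1, 2 and 3). The median differences of the SMAD list were log2 0.05, -0.13, 0.34 and 0.06 at stages I to IV, beside medians of all genes between -0.01 and 0.02.

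Of 20 genes listed as regulators of Id transcription, all were tested. The calls between antibodies were 1 higher at stage I, 0 at stage II (3 with an unadjusted p under 0.05, and 1 call by DESeq2), 1 higher and 2 lower at stage III and 1 higher at stage IV. Shares of all genes called were 4.42%, 1.75%, 6.37% and 1.05% at these stages. Gfi1, a repressor, was higher under anti-IL5 at stage IV, at 12.1 ± 1.59 against 4.63 ± 1.38 CPM (log2 1.38 ± 0.19, edgeR adjusted p = 0.000375), where Id1 was lower. At stage I, where Id1 and Id2 were higher, the Gfi1 levels were 108 ± 4.84 and 66.9 ± 9.26 CPM (edgeR adjusted p = 0.0211, but 0.144 without isotype replicate 2 and 0.0845, 0.055 and 0.0513 without anti-IL5 replicates 1, 2 and 3). At stage III Gata2 was lower, at 131 ± 33.9 against 377 ± 138 CPM (edgeR adjusted p = 0.000329), as was Runx1, at 27.9 ± 5.42 against 67.0 ± 20.9 CPM (edgeR adjusted p = 0.00139). Zeb2, another repressor, was the gene called higher at stage III (log2 0.96, edgeR adjusted p = 0.0161), but its p was 0.07 and 0.0962 without isotype replicates 1 and 3, and 0.0502 and 0.108 without anti-IL5 replicates 2 and 3. Which of these factors act on Id genes in eosinophils was not tested.

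Of 7 genes acting on Id protein turnover, such as the deubiquitinase gene Usp1, 1 was called between antibodies (stage I, 4.42% of all genes). That gene, Dyrk1b, a kinase gene, was read at 2.48 ± 1.07 against 0.53 ± 0.31 CPM at stage I (edgeR adjusted p = 0.00852, but 0.0673 without isotype replicate 2 and 0.0704 without anti-IL5 replicate 2). Usp1 lay at 118 ± 17.6 against 120.4 ± 3.04 CPM there. Of 10 pocket protein and CDK inhibitor genes, Cdkn2d, which encodes the cell cycle inhibitor p19, was higher under anti-IL5 at stage I, at 196 ± 35.5 against 74.3 ± 14.0 CPM (log2 1.40 ± 0.16, edgeR adjusted p = 2.06e-05). It was also the 1 gene of the list called at stage II, at 453 ± 29.9 against 262 ± 61.7 CPM (edgeR adjusted p = 0.035, but 0.263 without isotype replicate 2 and 0.177 and 0.0868 without anti-IL5 replicates 1 and 2). Among all genes, 0.565% were called higher at stage II and 0.864% lower at stage IV. At stage IV 1 gene of the list was lower, Cdkn1a, which encodes the CDK inhibitor p21, at 20.7 ± 8.76 against 130.3 ± 75.3 CPM (edgeR adjusted p = 0.0226, but 0.0886 without isotype replicate 3 and 0.133 and 0.118 without anti-IL5 replicates 2 and 3).

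The E-protein target list, drawn mainly from lymphocytes, had 18 genes, of which 13 were tested. Under anti-IL5, 3 were higher and 1 lower at stage I, 0 were called at stage II (3 with an unadjusted p under 0.05, and 2 calls by DESeq2), 1 was lower at stage III, and 1 was higher and 2 lower at stage IV. Their median differences were log2 0.37, 0.63, 0 and -0.02. Among all genes, 2.6% were higher and 1.82% lower at stage I. At stage III 5.05% were lower, and at stage IV 0.186% were higher and 0.864% lower. The listed gene lower at stages I, III and IV was Socs1, which is also on the list of IL-5 and STAT5 readouts. The other gene lower at stage IV was Cdkn1a, also on the CDK inhibitor list, whose call was lost without single libraries, as given above. Gfi1 is also on the regulator list.

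As a readout of IL-5 signalling, Socs2, a feedback inhibitor induced through STAT5, was at 0.10 to 2.04 CPM under anti-IL5 and at 11.1 to 26.4 CPM in isotype mice as group means. It was lower at every stage, by log2 -5.15 ± 0.57 at stage I and -3.72 ± 0.48 at stage IV (edgeR adjusted p = 1.73e-05 and 0.000175). Of 12 genes on that list, 3, 3, 5 and 5 were lower at stages I to IV, and 1 was higher at each of stages I to III. Among all genes, 1.82%, 1.19%, 5.05% and 0.864% were lower at stages I to IV. At stages I to III, 2.6%, 0.565% and 1.32% were higher. The listed gene higher was Bcl6, which STAT5 is known to repress, by log2 2.50 ± 0.50, 2.69 ± 0.62 and 1.62 ± 0.43 (edgeR adjusted p = 0.00538, 0.0275 and 0.0262). The Bcl6 call at stage II was lost without any 1 of the 4 libraries (edgeR adjusted p = 0.0899 to 0.0981), and at stage III it was lost without isotype replicates 1 or 3 (0.0593 and 0.126) or anti-IL5 replicates 2 or 3 (0.0782 and 0.0637).

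Levels of other gene groups moved beside the Id differences. Immediate early genes, which also respond to handling of cells, summed to 8980 to 12300 CPM in isotype and 10800 to 21500 CPM in anti-IL5 libraries at stage I, and to 15500 to 26900 and 22800 to 34800 CPM at stage IV. Of these 12 genes, 6 were called higher in the mean over stages and 0 lower, and 1, 0, 0 and 0 were called at stages I to IV by edgeR. Among all genes, 8.59% were called higher and 10.3% lower in that mean. Shares called at stages I to IV were 4.42%, 1.75%, 6.37% and 1.05%. At stages II to IV, 4, 4 and 5 of the 12 immediate early genes had an unadjusted p under 0.05, and DESeq2 called 2, 0 and 2. At stage I, where the Id differences were largest, B lineage markers summed to 70.3 to 113 CPM under anti-IL5 against 35.2 to 49.3 CPM, with Ms4a1 and Pax5 at 0 in either group. Of the 6 B lineage markers tested, 1 was called higher there, Cd79a, at 2.05 ± 0.77 against 0.44 ± 0.23 CPM (edgeR adjusted p = 0.0293, but 0.077 and 0.155 without isotype replicates 1 and 2 and 0.108 and 0.0902 without anti-IL5 replicates 1 and 2). Of 10 monocyte and macrophage markers, 1 was called higher at stage I, Csf1r, at 19.1 ± 8.14 against 6.23 ± 1.17 CPM (edgeR adjusted p = 0.0104, but 0.0702 without isotype replicate 2 and 0.0845 without anti-IL5 replicate 1), with list sums of 1040 to 1100 against 770 to 1320 CPM. At stage III, where 5.05% of all genes were lower, 4 of 7 tested basophil and mast cell markers were lower under anti-IL5. The list sums were 548 to 618 against 1000 to 1460 CPM. At stage I they were 1930 to 3090 against 2550 to 3210 CPM, with 0 called by edgeR or DESeq2. There 2 of the 7 had an unadjusted p under 0.05. At stage IV, where 0.186% of all genes were higher, 2 of 11 neutrophil markers, S100a9 and Ngp, were higher. The list sums were 720 to 1760 against 325 to 505 CPM. The Ngp call at stage IV (edgeR adjusted p = 0.0208) was lost in 5 of the 6 fits without 1 library, kept only without anti-IL5 replicate 1, with an adjusted p of up to 0.129. Neutrophil sums at stage I were 2720 to 10200 against 5000 to 6740 CPM, with 0 called by edgeR and 2 by DESeq2. There 3 had an unadjusted p under 0.05. At stage III the sums were 7280 to 8340 against 5280 to 7820 CPM, with 1 called higher beside 1.32% of all genes. The part of these groups in the Id differences was not tested.

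The genes whose log2 CPM over the 22 libraries was most like that of Id2 were Fgr (Pearson r = 0.966), Kiz (0.958), Tgfbi (0.956), Hacd4 (0.955) and Ankrd13d (0.954). Fgr encodes a kinase of the Src family and Tgfbi a secreted matrix protein. At stage I they were higher under anti-IL5 by log2 2.59 ± 0.32 and 3.31 ± 0.29 (edgeR adjusted p = 5.14e-05 and 8.67e-07). At stage IV Fgr differed by log2 -0.01 ± 0.28 and Tgfbi by 0.11 ± 0.24, beside 0.57 ± 0.17 for Id2. For Id1, genes among the closest were Tuba1c (r = 0.865), Mapre1 (0.800), H1f0 (0.775) and Dgkg (0.771). Tuba1c, a tubulin gene, differed by log2 0.58 ± 0.19 at stage I and -0.60 ± 0.19 at stage IV, without overlap at either, and passed at neither (edgeR adjusted p = 0.0946 and 0.206). These correlations describe 22 libraries that share stages and antibodies.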

How the data were processed

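Sorted cells were lysed and amplified with SMART-Seq v4 for 17 cycles and made into libraries with Nextera XT, which does not mark strand, per the labels' protocols. STAR 2.6.1a and build mm10, and DESeq2 without its role, are named in the submitters' processing notes, and how reads were assigned to genes (tool, gene models, strand) is not given in the sources used here. The deposited files hold the authors' raw counts per gene symbol for each library. Counts outside genes (12.7% to 22.1%) and ambiguous counts (1.86% to 2.39%), on 2 lines of each file, stayed out of library sizes.

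A quasi-likelihood model of the 8 groups over the 22 libraries was fitted with edgeR 4.0.16 under R 4.3.3, with TMM scaling factors of 0.850 to 1.23 and filterByExpr, which kept 12387 of 16619 genes with a count. A call is a p under 0.05 after Benjamini-Hochberg adjustment over all genes tested. CPM and log2 CPM (prior count 2) were computed here from the deposited counts. Count floors (3 counts) cover counting error only, since no molecular barcodes are named. The biological coefficient of variation was 22.8% for Id1 and 14.7% for Id2. On simulated counts for the stage I comparison over 12387 genes, 43% of 100 genes changed by log2 1 and 78% of 100 changed by log2 2 were recovered, and 3.2% of calls were false. The simulated libraries were independent, and all groups had equal means apart from those genes. These rates therefore need not hold for the real libraries, which differ widely between stages. No 2 libraries were copies.

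The members and the 22 gene lists were chosen with earlier results of these data known. Named genes are the members, Id4, the E proteins, up to 4 genes per list by smallest adjusted p in any antibody comparison, and the 5 genes most like each member by Pearson correlation, leaving out predicted genes; 1 gene that the rule names is not reported here. Klrb1f and Bcl6 fall outside this rule and were named after their values were seen. Alternatives were other scalings, no filter, DESeq2 1.42.0, limma-voom (limma 3.58.1), fits of the compared groups alone, replicate blocks and leaving out each library. Gene loci are from GENCODE and upstream sequences from RefSeq, which matched Id2 and Id3.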

Additional observations from a re-analysis of the deposited data

Results flagged for a closer look

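The anti-IL5 difference was tested between stages, and 4 such differences passed for Id genes. For Id1 the difference at stage IV minus that at stage I was log2 -3.28 ± 0.38 (edgeR adjusted p = 9.4e-05), and at stage IV minus stage III it was log2 -2.08 ± 0.38 (edgeR adjusted p = 0.0142). For Id2 the difference at stage III minus that at stage I was log2 -1.99 ± 0.24 (edgeR adjusted p = 0.000421), and at stage IV minus stage I it was log2 -2.29 ± 0.24 (edgeR adjusted p = 4.04e-05). Each kept its call in every fit that left out 1 library, with highest adjusted p of 0.00109, 0.0453, 0.00282 and 0.000348 in the order given. In fits of only the groups compared, the Id1 difference at stage IV minus stage III lost its call (edgeR adjusted p = 0.0514).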

How the results depend on the processing

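Over all alternatives, 692 values for the Id genes kept direction and side of the threshold, 18 gained and 6 lost a call, and 3 changed sign. For each of these the cause was not tested. The Id1 difference at stage II passed with DESeq2 (log2 1.15, adjusted p = 0.0202), as did Id2 at stage IV (log2 0.57). The Id2 difference at stage II minus that at stage I (log2 -1.24) also passed with DESeq2. Id1 from stage II to III in isotype mice passed with DESeq2's size factors in edgeR (log2 -0.77), library totals (-0.91), DESeq2 (-0.77), limma-voom (-0.72) and only the groups compared (-0.73). Id1 from stage I to II under anti-IL5 passed with DESeq2 (0.84) and limma-voom (0.91). With library totals, Id1 from stage III to IV in isotype mice turned to log2 -0.012 and the rise from I to IV, log2 0.50, lost its call. In fits of only the groups compared, the Id2 difference at stage II lost its call (log2 1.56, edgeR adjusted p = 0.356, 4 libraries). So did the Id1 difference at stage IV minus that at stage III (log2 -2.08, edgeR adjusted p = 0.0514). In such fits, Id2 at stage IV (log2 0.58) and for anti-IL5 stage III against isotype stage IV (log2 0.34) gained a call.

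Without 1 library each, 380 values kept direction and side, and 6 did not. The ranges were log2 -1.81 to -1.23 for Id1 at stage IV, -0.14 to 0.19 for Id1 from stage III to IV in isotype mice (negative without stage IV isotype replicate 2), and 0.60 to 1.11 for Id1 from I to II under anti-IL5. For Id2 they were log2 -0.34 to 0.018 for anti-IL5 stage I against isotype stage II (positive without isotype replicate 1) and 0.58 to 0.64 for anti-IL5 stage II against isotype stage III.

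Deviations of libraries with equal replicate numbers correlated at r = 0.0229 to 0.208 across stages in isotype mice and 0.0394 to 0.16 under anti-IL5. Between antibodies they correlated at 0.0127 to 0.338. Of these, 10 of 15, 6 of 15 and 2 of 11 pairs passed 0.1, so the numbers were not taken to pair samples throughout. The 2 of 11 are the stage II pairs, which share the r of 0.338, since deviations in a group of 2 mirror each other. Deviations from group means are not independent, so the cut at 0.1 cannot settle the pairing. For isotype stages I with III (0.12 to 0.2) and III with IV (0.124 to 0.208) all 3 pairs passed 0.1, and with the block within each antibody the step from III to IV was log2 0.07 for Id1 (adjusted p = 0.756) and 0.55 for Id2 (adjusted p = 0.00901), with no change of call. As a hint from the data, libraries correlated best with their own number in 18 of 18, 18 of 18 and 16 of 18 comparisons. With the number as a replicate block, the Id1 difference at stage II (log2 1.12, adjusted p = 0.0248) and the Id1 step from I to II under anti-IL5 (log2 0.74) passed. With a replicate block within each antibody, that step (log2 0.66) and the isotype step from II to III (log2 -0.68) passed. So did the Id1 anti-IL5 difference at stage III minus that at stage I (log2 -1.19). Id3 at 16 counts lies under what this depth can compare.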
